A study of Mus musculus with 4 samples.

Results

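Orphan CpG islands are stretches of GC-rich DNA with many CpG dinucleotides that lie away from the annotated starts of genes. CpG islands were taken from the mouse genome sequence (mm9, chromosomes 1 to 19) as stretches of at least 200 bp with a GC share of at least 0.5 and an observed over expected number of CpGs of at least 0.6, and an island was called orphan when its edge lay more than 5 kb from the transcription start site (TSS) of every transcript of the GENCODE M1 annotation. The rule gave 8095 orphan islands among 22439 CpG islands (36.1%). Of these, 2503 lay inside an annotated gene (intragenic) and 5592 lay between genes (intergenic). The orphan islands measured 200 to 6961 bp and held 13 to 442 CpGs, with a median of 26.

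The study mapped histone H3 acetylation in mouse embryonic stem (mES) cells by ChIP-seq, in which chromatin bound by an antibody is sequenced. There were 4 libraries, 1 for each group: H3K9ac (Abcam rabbit polyclonal AB4441), H3K14ac with the mouse monoclonal antibody 13HH3, H3K14ac with the mouse monoclonal antibody 7G8, and input DNA without antibody. All 4 came from untreated cells, labelled as line E14 of strain 129P2/OlaHsd at passage 25-30, whereas the methods describe wild type cells derived from blastocysts, grown on feeder cells and then passaged without them. The libraries held 19313142 (input) to 23837354 (7G8) tags, a tag being 1 mapped read of 36 bases, on chromosomes 1 to 19, X and Y. With 1 library per antibody there were no replicates, no test was made between libraries, and every 95% interval below covers only counting error or the sampling of islands within these libraries. Of the 8 embryonic stem cell genes examined, 7 carried 2-fold or more H3K9ac over input at their start (log2 1.89 for Nanog to 4.70 for Zfp42) and Esrrb did not (0.15), and among 6 fibroblast genes, which could mark remaining feeder cells, the values ran from -0.49 (Col3a1) to 1.59 (Twist2) with 3 of 6 at 2-fold or more, where 91.9% of unique islands within 1 kb of a TSS reached that ratio. The mark on more cells and more of the mark per cell cannot be told apart in such bulk libraries.

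CpG dinucleotides are rare in most of the mouse genome because methylated cytosines are lost by mutation, and islands are the places where they persist, usually without methylation. Most known islands cover promoters, and proteins with CXXC domains bind their unmethylated CpGs and bring histone-modifying enzymes with them. Orphan islands meet the same limits of length, GC and CpG content without a known gene start. Some of them are starts of transcripts that no catalogue lists, or are used in other tissues.

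The central bases of islands that the results below turn on are shown first, 5′ to 3′ on the plus strand of mm9, with each CpG in capitals. They are a choice of the islands named by the rule given under the methods, and islands that hold a later start are not shown. The first group is intergenic and had the highest lower bounds of H3K9ac over input. It holds the island 7204 bp from Mirlet7a-1, a let-7 microRNA gene (chr13:48641417-48641716), that 9433 bp from the zinc finger gene Zfp945 (chr17:23013534-23013830), that 76260 bp from Chd2, a chromatin remodeller gene and the nearest protein-coding one (chr7:80763174-80763473), and that 19232 bp from Nsd1, which codes for a histone methyltransferase (chr13:55291600-55291899).
near Mirlet7a-1: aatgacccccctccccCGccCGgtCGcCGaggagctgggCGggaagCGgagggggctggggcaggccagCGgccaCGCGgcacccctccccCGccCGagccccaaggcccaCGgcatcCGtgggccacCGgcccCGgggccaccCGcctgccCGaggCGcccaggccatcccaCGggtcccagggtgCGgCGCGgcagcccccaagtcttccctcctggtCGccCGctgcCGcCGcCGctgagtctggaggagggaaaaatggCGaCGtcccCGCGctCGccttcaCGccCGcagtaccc
near Zfp945: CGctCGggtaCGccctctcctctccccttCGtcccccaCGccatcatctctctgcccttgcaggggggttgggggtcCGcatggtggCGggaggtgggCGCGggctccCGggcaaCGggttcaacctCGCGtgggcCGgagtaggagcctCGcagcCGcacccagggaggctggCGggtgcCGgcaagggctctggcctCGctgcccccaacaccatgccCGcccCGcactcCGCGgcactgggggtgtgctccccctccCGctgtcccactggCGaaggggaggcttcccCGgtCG
near Chd2: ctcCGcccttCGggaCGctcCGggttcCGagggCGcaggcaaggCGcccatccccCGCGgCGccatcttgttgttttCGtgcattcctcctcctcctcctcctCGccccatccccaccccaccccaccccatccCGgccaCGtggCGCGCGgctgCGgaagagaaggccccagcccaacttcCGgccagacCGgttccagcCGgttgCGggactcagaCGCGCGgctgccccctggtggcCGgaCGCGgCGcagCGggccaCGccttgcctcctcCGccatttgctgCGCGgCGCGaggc
near Nsd1: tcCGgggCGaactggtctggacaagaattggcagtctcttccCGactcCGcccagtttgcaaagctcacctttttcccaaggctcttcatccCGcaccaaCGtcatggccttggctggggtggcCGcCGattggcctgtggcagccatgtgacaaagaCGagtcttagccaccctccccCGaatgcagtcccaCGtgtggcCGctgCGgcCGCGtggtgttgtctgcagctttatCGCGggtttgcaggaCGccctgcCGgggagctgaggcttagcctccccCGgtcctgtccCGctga

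The next group lies inside genes. It shows a noncoding exon of BC042782 (chr4:94827921-94828173), coding exons of the axon guidance gene Slit3 (chr11:35521435-35521635) and of Kbtbd11 (chr8:15028181-15028480), an intron of the lipid phosphatase gene Ppap2a (chr13:113622189-113622407), and the coding exon of Plec, which codes for the cytoskeletal linker plectin and holds the island with the most CpGs of all orphan islands in unique sequence (chr15:76009600-76009899).
BC042782: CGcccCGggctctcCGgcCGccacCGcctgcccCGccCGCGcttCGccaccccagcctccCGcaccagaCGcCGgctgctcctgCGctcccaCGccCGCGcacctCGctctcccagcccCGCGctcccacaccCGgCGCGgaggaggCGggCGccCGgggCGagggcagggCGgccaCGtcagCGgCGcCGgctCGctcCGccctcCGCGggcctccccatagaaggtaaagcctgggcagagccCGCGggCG
Slit3: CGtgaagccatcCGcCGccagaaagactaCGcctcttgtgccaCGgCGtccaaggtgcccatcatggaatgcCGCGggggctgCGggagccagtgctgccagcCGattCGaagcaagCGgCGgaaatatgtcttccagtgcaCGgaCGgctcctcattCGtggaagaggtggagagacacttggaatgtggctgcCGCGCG
Kbtbd11: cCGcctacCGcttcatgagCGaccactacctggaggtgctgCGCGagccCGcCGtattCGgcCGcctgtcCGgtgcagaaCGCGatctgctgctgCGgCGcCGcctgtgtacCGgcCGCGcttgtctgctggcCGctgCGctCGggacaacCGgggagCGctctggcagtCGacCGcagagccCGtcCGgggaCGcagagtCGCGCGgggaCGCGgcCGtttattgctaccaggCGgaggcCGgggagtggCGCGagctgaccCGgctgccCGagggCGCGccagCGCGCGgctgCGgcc
Ppap2a: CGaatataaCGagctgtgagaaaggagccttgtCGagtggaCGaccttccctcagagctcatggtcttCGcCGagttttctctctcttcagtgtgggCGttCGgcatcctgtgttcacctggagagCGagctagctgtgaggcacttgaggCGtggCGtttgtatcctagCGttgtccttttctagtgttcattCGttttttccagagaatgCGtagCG
Plec: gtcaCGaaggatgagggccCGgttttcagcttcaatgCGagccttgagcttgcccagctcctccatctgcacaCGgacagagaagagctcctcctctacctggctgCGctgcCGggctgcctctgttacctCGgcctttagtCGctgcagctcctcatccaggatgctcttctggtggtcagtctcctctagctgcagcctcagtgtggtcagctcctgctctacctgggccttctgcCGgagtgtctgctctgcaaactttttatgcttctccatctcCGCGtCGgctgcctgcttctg

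The last sequence is from an island around which 13HH3 exceeded H3K9ac, in an intron of the calsyntenin gene Clstn2 (chr9:97601485-97601725). It is given because its letters differ in kind from those above, being a short unit repeated in tandem.
Clstn2: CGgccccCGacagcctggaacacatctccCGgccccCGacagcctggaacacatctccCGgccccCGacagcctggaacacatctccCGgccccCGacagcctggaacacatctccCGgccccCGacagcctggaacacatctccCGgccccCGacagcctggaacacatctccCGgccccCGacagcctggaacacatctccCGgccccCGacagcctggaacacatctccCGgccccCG

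Most orphan islands lay in sequence that 36-base reads could not place. Each 36-base word of the 2 kb around an island was counted in the genome. Only 2072 orphan islands (25.6%) had at least 80% of their words at a single place, against 95.3% of the islands within 1 kb of a TSS. The share was 43.5% for the intragenic (1090 islands) and 17.6% for the intergenic (982). In 5082 orphan islands the median word occurred more than 10 times in the genome. Tags were few in this class. No input tag was found in 1544 orphan windows, of which 1542 were not unique, and 1082 windows held no tag in any library. Windows with under 10% unique words (1671) had a median of 0 tags in each of the 4 libraries, and those with 30 to 50% (2498) had medians of 5 to 6 tags, against 68 (H3K9ac), 37 (13HH3), 34 (7G8) and 23 (input) in unique windows.

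**Figure D1:**
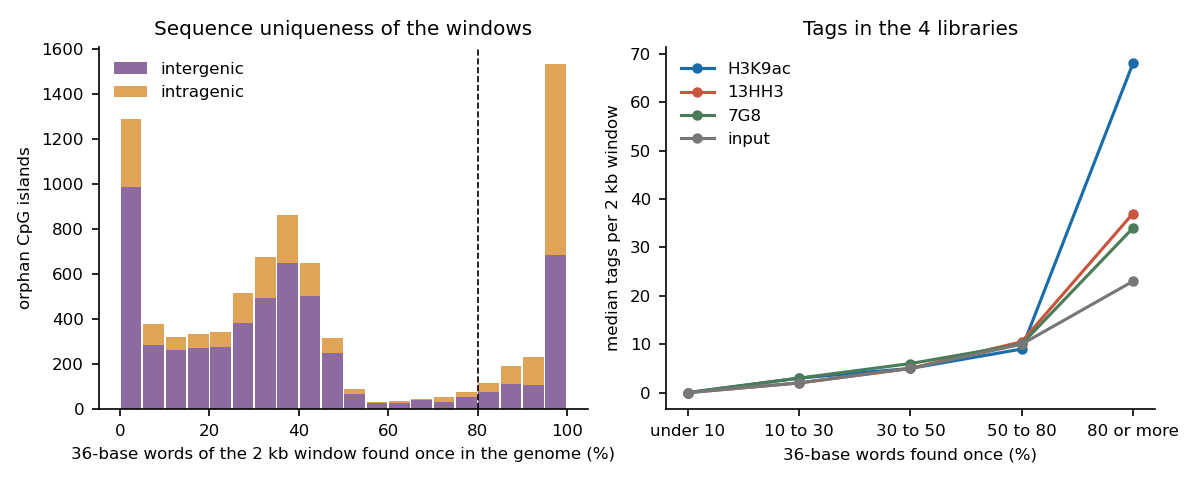
Left, number of orphan CpG islands by the share of 36-base words of their 2 kb window found at 1 place in the genome, stacked for intergenic and intragenic islands, with the dashed line at 80%. Right, median tags per window in the 4 libraries for 5 classes of that share. The islands form groups near 0, around 40 and near 100%, and the libraries separate from each other only in windows at or above 80%, where the medians are 23 (input) to 68 (H3K9ac).

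The islands that could not be placed shared few sequences. Among the 6023 orphan islands outside unique windows, the most widespread 36-base word stood in 1058 of them (17.6%), the next word among the remainder in 1038 and the third in 993. The first 5 such words accounted for 3842 islands (63.8%). The third family had a median of 0 tags in all 4 libraries and a median island length of 240 bp, and 70.8 to 80.8% of the islands of each family were intergenic. The other 4 families had median unique shares of 30.7 to 38.2% and medians of 2 to 6 tags in each library, so that their ratios rest on few tags. The values below are for unique windows unless all orphan islands are named.

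More orphan islands were called enriched with the H3K9ac antibody than with either H3K14ac antibody. With 1 library each of a polyclonal and of monoclonal antibodies, this order does not compare the amounts of the marks. An island was called enriched when its tags per 10000000 in the 2 kb window, with 1 added, were at least 2-fold over input treated in the same way. Over all 8095 orphan islands, 2015 (24.9%, 95% interval 24.0 to 25.8) were called for H3K9ac, 776 (9.59%, 8.95 to 10.2) for 13HH3 and 678 (8.38%, 7.78 to 9.0) for 7G8. Among all CpG islands the called shares were 63.8%, 24.5% and 20.7%, and among 1150502 tiles of 2 kb with an input tag they were 8.17%, 5.50% and 5.69%. Values of at most 0.5 of input were found in 10.7%, 9.39% and 8.68% of orphan islands, against 4.24%, 3.99% and 4.08% of all islands.

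In unique windows the shares were higher. Of 2072 orphan islands, 1102 were called for H3K9ac (53.2%, 51.0 to 55.4), 389 for 13HH3 (18.8%, 17.1 to 20.5) and 225 for 7G8 (10.9%, 9.55 to 12.3), where 84.5%, 32.2% and 26.2% of all unique islands were called. The median log2 ratios to input were 1.08 (1.02 to 1.13), 0.41 (0.38 to 0.46) and 0.17 (0.14 to 0.21). Unique islands within 1 kb of a TSS (12111) had medians of 2.22, 0.77 and 0.67 and called shares of 91.9%, 36% and 30.6%. The intervals of orphan and TSS islands did not overlap for any of the 3 antibodies. The median input was 11.9 tags per 10000000 in orphan and 10.4 in TSS islands, but orphan islands were smaller, with a median of 28 CpGs against 65.

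The antibodies met at the same orphan islands in unequal numbers. Of the 389 unique islands called for 13HH3, 356 (91.5%) were also called for H3K9ac, whereas these 356 made up 32.3% of the 1102 called for H3K9ac. All 3 antibodies called 154 islands, H3K9ac alone called 682, 13HH3 alone 29 and 7G8 alone 3, and 934 (45.1%) were called by none. Among unique TSS islands, 99.5% of those called for 13HH3 were also called for H3K9ac and 39% in the other direction, 0.173% were called by 13HH3 alone, none by 7G8 alone, and 7.88% by no antibody. Of the islands called by 7G8, 70.2% were called by 13HH3, and 40.6% in the other direction. Across the 2072 islands, which share libraries, depth and base composition, Spearman's rho was 0.658 between H3K9ac and 13HH3, 0.760 between H3K9ac and 7G8 and 0.692 between 13HH3 and 7G8, all ratios being to the same input. The direct ratio of 13HH3 to H3K9ac had a median log2 of -0.63 (-0.66 to -0.59) in orphan and of -1.45 (-1.47 to -1.44) in TSS islands.

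Intergenic orphan islands stood further above input than intragenic ones. For H3K9ac, 598 of 982 intergenic islands (60.9%, 57.8 to 64) and 504 of 1090 intragenic islands (46.2%, 43.2 to 49.3) were called. For 13HH3 the shares were 22.3% (19.7 to 25.0) and 15.6% (13.5 to 17.9), and for 7G8 they were 16.2% (13.9 to 18.6) and 6.06% (4.71 to 7.64). The ChIP tags themselves were closer together. Median H3K9ac was 30.2 tags per 10000000 in intergenic and 28.5 in intragenic islands, median 13HH3 was 15.7 and 18.5, and median 7G8 was 13.8 and 14.3. Input was 10.4 in intergenic and 14 in intragenic islands, so that for 13HH3 and 7G8 the tags were in the opposite order to the ratios. The part of input in the order was not tested. Over all orphan islands, most of them not unique, the order turned for H3K9ac, with 30.4% of intragenic and 22.4% of intergenic islands called, and for 13HH3, with 11.6% and 8.69%. For 7G8 it did not, with 7.35% and 8.83%, but it did turn (7.27% and 5.63%) with calls by the exact interval above equality.

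Within genes, the 663 unique islands in coding exons and the 378 in introns had like H3K9ac, with median log2 ratios of 0.92 (0.86 to 0.98) and 0.93 (0.81 to 1.08). With 7G8 the intervals of the medians did not overlap. The median was -0.06 (-0.11 to -0.01) in coding exons and 0.15 (0.08 to 0.21) in introns, and 26 islands (3.92%) and 31 islands (8.20%) were called. Coding exons had the higher input, with a median of 15.5 tags per 10000000 against 11.4. The 18 islands in noncoding exons and the 31 in exons of untranslated regions were too few to place between the others, with 61.1% (35.7 to 82.7) and 48.4% (30.2 to 66.9) called for H3K9ac.

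Enrichment was more frequent in islands with more CpGs. Among unique orphan islands with under 20 CpGs, 27.1% (22.8 to 31.8) were called for H3K9ac, and the share was 48.0% at 20 to 39, 71.6% at 40 to 59, 78.8% at 60 to 99 and 87.1% (79.9 to 92.4) at 100 or more. With 13HH3 it went from 11.4% (8.43 to 14.9) to 44.4% (35.4 to 53.5) over the same classes. With 7G8 it went from 5.57% to 16.7% at 60 to 99 CpGs and was 14.5% (8.84 to 22) at 100 or more. The intervals of this largest class held the shares of TSS islands for H3K9ac (91.9%) and for 13HH3 (36%). The 30.6% of TSS islands with 7G8 lay above the interval of the class. These TSS shares are over islands of every CpG number. TSS islands with 100 or more CpGs were not counted apart, so islands of like size were not compared. Across the 2072 islands, rho with the number of CpGs was 0.424 for H3K9ac, 0.260 for 13HH3 and 0.199 for 7G8, and over all 8095 it was 0.249, 0.144 and 0.141. CpG number, length and GC content move together in these islands, and for 7G8 rho with the GC content of the window was -0.00421. The window was 2 kb for islands of every length, so short islands filled less of it. With 500 bp on each side, rho over all 8095 was 0.222, 0.139 and 0.0674. At the centre of unique islands with under 20 CpGs, summed tags over input were 2.22, 1.52 and 1.04. At 60 or more CpGs they were 3.86, 2.30 and 1.08. The part of island length in the shares was not tested.

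**Figure D2:**
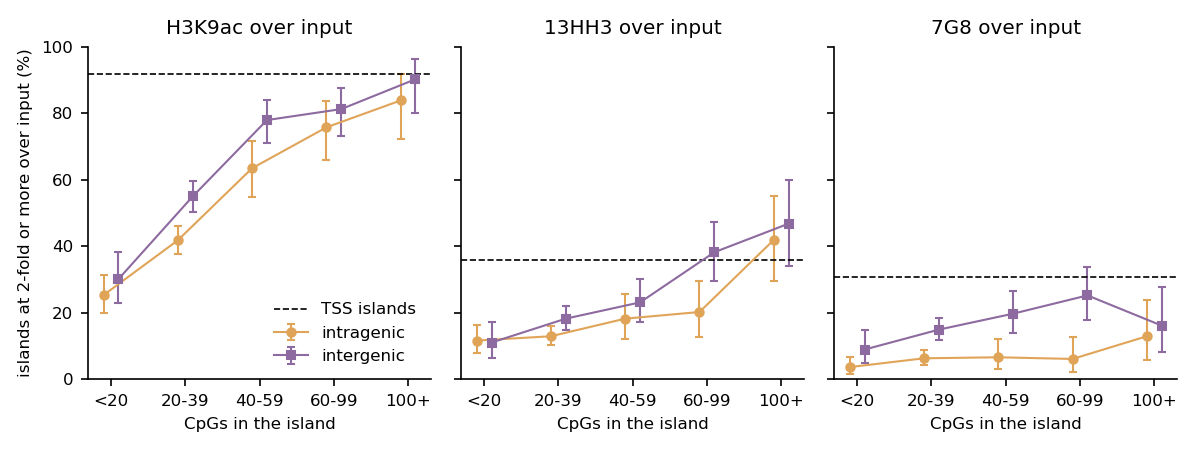
Percentage of unique orphan CpG islands at 2-fold or more over input, by CpGs per island, for the 3 antibodies (panels). Circles are intragenic and squares intergenic islands, with exact 95% binomial intervals. The dashed line is the share in unique TSS islands of every CpG number. For H3K9ac the points run from 25.3 and 30.1% under 20 CpGs to 83.9 and 90.3% at 100 or more, and for 7G8 the intragenic points stay at or below 12.9%.

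Orphan islands were also set beside genome tiles of the same size and GC content, as a description only, since the tiles needed an input tag and were not limited to unique sequence. At a GC content of 50 to 55%, 57.9% of 737 unique orphan windows and 20.5% of 66679 tiles were called for H3K9ac, 20.4% and 10.8% for 13HH3, and 11.9% and 4.86% for 7G8. Below 45% GC, 15.0% of 200 orphan windows and 5.47% of tiles were called for H3K9ac. At 60% GC or more the shares were 78.1% and 79.5%, but tiles of that composition include CpG islands themselves. For H3K9ac the share of orphan windows was above that of tiles in each class below 60% GC, whereas at 55 to 60% the 13HH3 share (16.8%, 13.8 to 20.2) had an interval that held the 14.8% of tiles, and the 7G8 share (7.22%, 5.21 to 9.70) the 7.76%.

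H3K9ac over input was lowest in the orphan islands farthest from a TSS. The islands next to the limit of 5 kb were alike on both sides, given as a description only. The 210 unique islands at 4 to 5 kb had a median H3K9ac log2 ratio of 1.37 (1.19 to 1.45), and the 147 at 5 to 6 kb had 1.25 (1.08 to 1.48). For 13HH3 the medians were 0.49 and 0.46, and for 7G8 0.19 and 0.26. The median H3K9ac ratio was 0.91 (0.75 to 1.09) at 50 to 100 kb, and 0.18 (-0.21 to 0.64) in the 155 islands more than 100 kb from a TSS, of which 29% were called. The most distant class also had the lowest GC content, with a median window of 48.4% against 53.9% at 5 to 6 kb, and the fewest CpGs, with a median of 24.

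**Figure D3:**
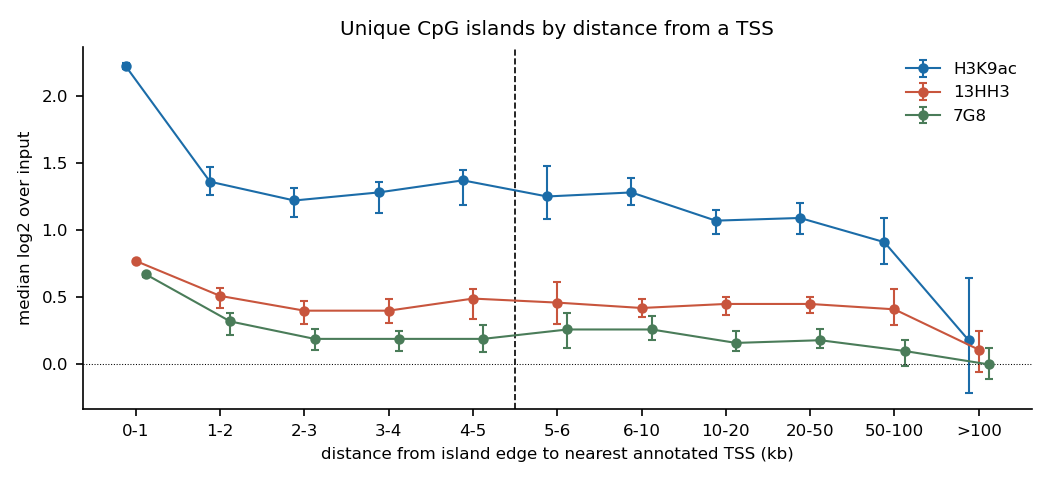
Median log2 ratio to input (1 tag per 10000000 added to each side) of unique CpG islands, by distance from the island edge to the nearest annotated TSS in kb, for H3K9ac, 13HH3 and 7G8, with exact 95% intervals of the median. The dashed line marks the 5 kb limit, to the right of which islands are orphan. H3K9ac is 2.22 within 1 kb and 1.36 at 1 to 2 kb, lies between 0.91 and 1.37 from 2 to 100 kb and is 0.18 beyond.

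Some orphan islands had gained a start in a later annotation. Promoter sequences of the later RefSeq catalogue (assembly GRCm38.p6) were placed on mm9 by their bases, and 205 unique orphan islands (10.3% of those on chromosomes with placed starts, 17.1% of intergenic and 4.09% of intragenic ones) lay within 1 kb of such a start. Their median H3K9ac log2 ratio was 1.64 (1.5 to 1.80), and 161 (78.5%) were called. Islands of Hnrnpf, an RNA-binding protein gene, and of Adk, the adenosine kinase gene, contained a later start of the same gene, and the island in the Eif4e3 intron contained a later start of Foxp1, a forkhead transcription factor gene. The 1675 unique islands with no such start within 5 kb exclude 74 islands on a chromosome for which no later starts were placed. The median of the 1675 was 0.98 (0.93 to 1.03), and 49% were called for H3K9ac, 17.4% for 13HH3 and 9.49% for 7G8.

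Around the island centre the ratios to input of the 2 H3K14ac antibodies had different shapes. Distances run along the plus strand of mm9 and were not turned by gene strand. Before and after the centre therefore do not mean upstream and downstream. Summed over unique intergenic orphan islands, H3K9ac reached its highest ratio to input at the bin 50 bp before the centre (3.92, 3.68 to 4.18) and 13HH3 at the same bin (2.04, 1.90 to 2.19). With 7G8 the ratio at the centre was 1.20 and the highest value, 1.61 (1.5 to 1.74), lay 350 bp after it. The ratios of intragenic islands showed the same order, with 2.75 for H3K9ac and 1.68 for 13HH3 at the bin 50 bp before the centre. With 7G8 the intragenic ratio was 0.975 at the centre and 1.20 at 450 bp. The 7G8 tags themselves, without input, were highest at the bin 50 bp before the centre in intragenic islands. There the lower centre was in the ratio only. In intergenic islands the 7G8 tags were also lower at the centre than 350 bp to either side. In TSS islands 7G8 was 1.25 at the centre and 1.92 at 550 bp, while H3K9ac was highest 450 bp before the centre (5.61). Input itself was 1.46 times higher at the centre than at the ends of the profile in intragenic and 1.19 times higher in intergenic orphan islands, and its part in the 7G8 dip was not tested. The 3 ratios share that input.

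**Figure D4:**
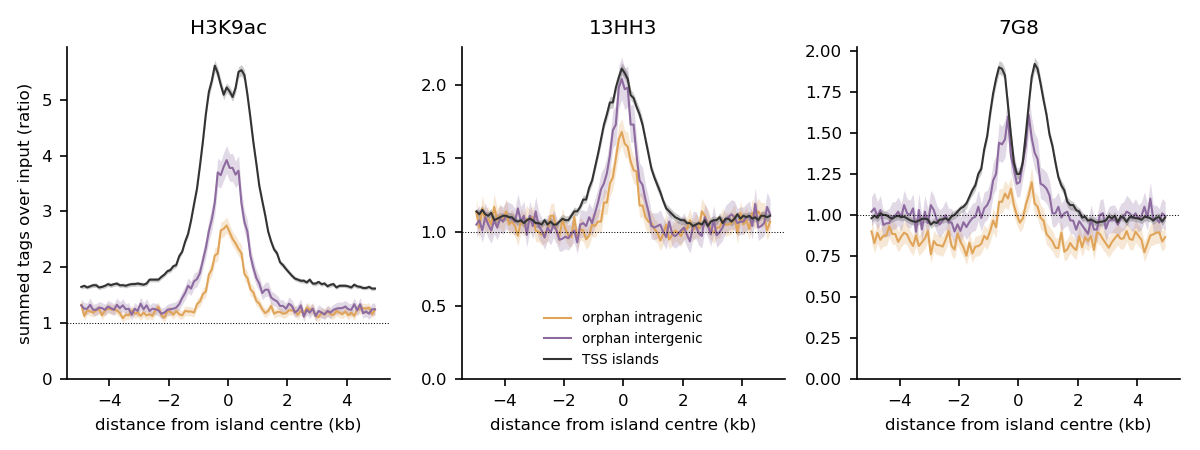
Tags of each antibody over input, summed in bins of 100 bp over unique islands and scaled by library size, against distance from the island centre in kb, for intragenic and intergenic orphan islands and TSS islands, with shaded exact 95% counting intervals. Distance runs along the plus strand of mm9, not by gene strand. The ratios of H3K9ac and 13HH3 are highest at the centre of orphan islands (3.92 and 2.04 for intergenic ones). The 7G8 ratio forms shoulders on both sides of a lower centre (1.20 for intergenic ones).

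The shares varied between chromosomes, and the libraries did too. The share of unique orphan islands called for H3K9ac ran from 44.4% on chromosome 15 to 66.7% on chromosome 2, and for 13HH3 from 9.01% on chromosome 17 to 34.8% on chromosome 13. The tags of 13HH3 over input over whole chromosomes, among 1 to 19, ran from 0.764 (chromosome 17) to 1.23 (chromosome 12). On X the tags over input were 0.668 (H3K9ac), 0.627 (13HH3) and 0.743 (7G8) and on Y 3.03, 3.64 and 4.54, so that input differed from all 3 ChIP libraries in its share of sex chromosome tags, and the part of this in the ratios was not tested. With input scaled within each chromosome, the H3K9ac shares of orphan islands ran from 41.7% (chromosome 11) to 58.7% (chromosome 2), with 52.8% on chromosome 15. The 13HH3 shares then ran from 8.99% (chromosome 19) to 28.1% (chromosome 13).

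Among single islands, the highest lower bounds of H3K9ac over input were intergenic. The ratios that follow are of library-scaled tags without the added tag. The window near Mirlet7a-1 held 209 tags of H3K9ac, 73 of 13HH3, 26 of 7G8 and 6 of input, so that all ChIP libraries exceeded input. Its H3K9ac log2 ratio was 4.86 (3.71 to 6.32). The island near Zfp945 held 339, 177, 68 and 14 tags in the same order and had the highest 13HH3 lower bound of the intergenic islands, at 3.5 (2.71 to 4.40), with 85.2% of its words unique. The island near Chd2 held 349, 114, 90 and 15 tags, and its H3K9ac ratio was 4.28 (3.53 to 5.13). That near Nsd1 held 295, 75, 101 and 13, and here 7G8 (2.65) exceeded 13HH3 (2.37), with overlapping intervals (1.82 to 3.61 and 1.5 to 3.34). An island with 204 CpGs on chromosome 17, 25086 bp from BC032203, held 136, 79, 19 and 7 tags, and one on chromosome 16, 29997 bp from Tmem44, held 116, 45, 47 and 5.

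The islands inside genes were led by an RNA-binding protein gene. The Hnrnpf intron held 249 tags of H3K9ac, 58 of 13HH3, 54 of 7G8 and 13 of input, with an H3K9ac log2 ratio of 4.0 (3.2 to 4.93). The noncoding exon shared by C87436 and A430078I02Rik held 327, 103, 128 and 21 tags, and the Adk intron held 164, 44, 54 and 11. BC042782, whose island of 253 bp has 38 CpGs, held 152, 83, 62 and 10 tags, and its 13HH3 ratio was 2.89 (1.94 to 4.0). In the coding exon of Slit3, with only 19 CpGs, the tags were 137, 99, 82 and 15, and the log2 ratio of 13HH3 to H3K9ac was -0.37 (-0.76 to 0.02). The Kbtbd11 exon, with 206 CpGs, held 181, 138, 64 and 26 tags. The Ppap2a island had 15 CpGs and the lowest input of these, 4 tags beside 39, 33 and 43, and its 7G8 ratio of 3.12 has a wide interval (1.66 to 5.06).

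The islands with the most CpGs had a range of ratios. Those of Plec, Dhx15, Otp and Eif4e3 (5176, 3278, 3229 and 2559 bp) were longer than the 2 kb counted, and their central 300 bases held 12, 9, 8 and 29 CpGs, so that part of their CpGs lay outside the counted window. In unique windows the island with the most CpGs (343 in 5176 bp of the Plec coding exon) held 111 tags of H3K9ac, 78 of 13HH3, 28 of 7G8 and 73 of input. Its H3K9ac log2 ratio was 0.34 (-0.10 to 0.79), its 13HH3 ratio -0.07 (-0.55 to 0.41) and its 7G8 ratio -1.69 (-2.37 to -1.04). The intergenic island with the most CpGs (266) lay 74263 bp from the RNA helicase gene Dhx15 and held 64, 54, 21 and 28 tags, and that 7154 bp from the homeobox gene Otp (252 CpGs) held 61, 43, 22 and 16. The island with 249 CpGs, 34503 bp from the let-7 gene Mirlet7c-2, held 147, 54, 27 and 36 tags. Islands with 252 CpGs in Gm20388, 244 in Agap1 and 240 near Ankrd33 had H3K9ac ratios of 1.32, 0.92 and 0.99 and 7G8 ratios of -0.43, -0.96 and -0.70. The islands of Gm20388 and near Ankrd33 lay 145 and 59 bp from later RefSeq starts. The 240 CpGs of the Eif4e3 intron, which holds the later Foxp1 start, came with 87, 59, 31 and 10 tags and an H3K9ac ratio of 2.86 (1.91 to 3.97). Of the 8 islands chosen for most CpGs, 6 had a 7G8 ratio below 0. Among these 6, the interval lay below 0 in Plec and Agap1 (-1.82 to -0.12) and reached 0.00 or more in the others. The share of all unique orphan islands below 0 was not counted, and their median 7G8 ratio, with 1 added, was 0.17. The median input of all unique orphan islands (23 tags) was exceeded in 5 of the 6 and equalled in 1.

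**Figure D5:**
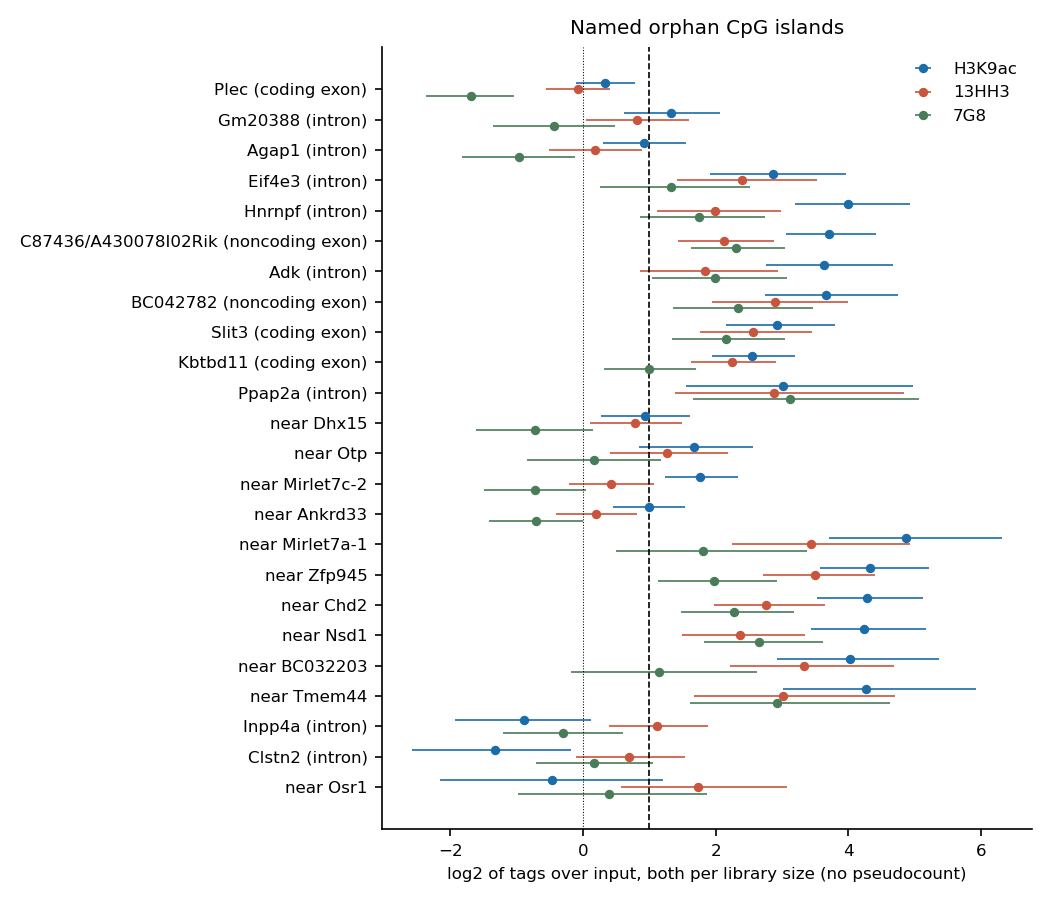
Log2 ratio of tags to input, scaled by library size without an added tag, for the 24 named orphan islands and the 3 antibodies, with exact 95% counting intervals. Labels give the host gene and feature, or the nearest annotated gene for intergenic islands (the nearest protein-coding gene where the nearest is a U6 snRNA). The dotted line marks equality with input and the dashed line a 2-fold ratio. H3K9ac is above 4 in the intergenic islands near Mirlet7a-1, Zfp945, Chd2, Nsd1, BC032203 and Tmem44, and left of 13HH3 in the 3 islands at the bottom.

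The 3 islands where 13HH3 exceeded H3K9ac by the highest lower bound were tandem repeats. An intron of the phosphoinositide phosphatase gene Inpp4a held 15 tags of H3K9ac, 56 of 13HH3, 23 of 7G8 and 23 of input, with a log2 ratio of 13HH3 to H3K9ac of 2.00 (1.16 to 2.93). The Clstn2 intron held 10, 38, 29 and 21 tags (2.03, 0.99 to 3.2). An intergenic island on chromosome 12, 340128 bp from Osr1, the nearest protein-coding gene, held 7, 30, 13 and 8 tags (2.20, 0.98 to 3.63). Against input, the log2 ratio of H3K9ac was -0.88 (-1.92 to 0.12), -1.33 (-2.58 to -0.18) and -0.46 (-2.15 to 1.20) in these islands, and that of 13HH3 was 1.12 (0.40 to 1.89), 0.69 (-0.11 to 1.54) and 1.74 (0.58 to 3.08), so that the interval of 13HH3 lay above input in the first and the last. After their letters had been read, a measure of tandem repetition was added, the largest share of bases equal to the base a fixed step of up to 60 bases further on. It was 79.7% in the Inpp4a island, 83.0% in that of chromosome 12 and 100% at a step of 29 bases in the Clstn2 island, against 32.1 to 43.9% in the other named islands.

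At 70% or more by this measure, 135 of the 2072 unique orphan islands (6.52%, 5.49 to 7.67) were tandem repeats, compared with 8 of 12111 TSS islands (0.0661%, 0.0285 to 0.130). Their values are of the 2 kb windows, repeat and flanks together. The median log2 ratio to input was -0.07 (-0.17 to 0.14) for H3K9ac, 0.20 (0.08 to 0.39) for 13HH3 and -0.08 (-0.20 to 0.12) for 7G8. Of these islands, 13.3%, 11.9% and 3.70% were called. The other 1937 islands had medians of 1.14, 0.43 and 0.19. Both classes had a median of 28 CpGs. The median ratio of 13HH3 to H3K9ac was 0.31 (0.09 to 0.40) in the tandem repeats and -0.67 (-0.71 to -0.64) in the rest. The level of this ratio depends on the scaling by library size. In genome bins with few tags H3K9ac was 0.685 and 13HH3 0.865 of input, and the ratio was not recomputed with that scaling. The windows of the tandem repeats had less GC than the rest (47.8% against 53.3%). Genome tiles of 45 to 50% GC had medians over input of -0.14 (H3K9ac), 0.13 (13HH3) and -0.08 (7G8). Each lay within the interval of the tandem repeats for that antibody. These tiles needed an input tag and were not limited to unique sequence. The direct ratio of 13HH3 to H3K9ac was not summarised for tiles, and the part of GC content in it was not tested. Of the 100 islands with the highest lower bound for 13HH3 over H3K9ac, 28 were tandem repeats and 63 intragenic, although only 62 had a bound above equality, and of the 100 with the highest lower bound for H3K9ac over input, 0 were tandem repeats and 19 intragenic. Among all 2072 islands 1090 were intragenic. Since the measure was chosen from the islands at the top of the ranking by 13HH3 over H3K9ac, these counts and the median ratios of 13HH3 to H3K9ac are descriptive.

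Short motifs of promoters were searched for in the central 300 bases on both strands. No motif contains another. The GC box GGGCGG, bound by Sp1 family factors, was present in 44.0% (41.9 to 46.2) of unique orphan islands, in 70.5% of TSS islands and in 64.9% of all unique islands. These bases held a median of 23, 30 and 29 CpGs in that order. The GC box stood in 57.0% (54.0 to 59.9) of unique orphan islands called for H3K9ac and in 29.3% (26.4 to 32.3) of those not called. Their medians were 25 and 21 CpGs in these bases. Among intergenic ones the shares were 66.1% (62.1 to 69.8) and 29.9% (25.4 to 34.8), with medians of 26 and 21 CpGs. The ETS motif CCGGAAG occurred in 5.74% of orphan and 13% of TSS islands (11.5% of all). The NRF1 motif GCATGCGC occurred in 2.85% of each, near the 2.84% of all islands, and the cyclic AMP response element TGACGTCA in 1.0% and 1.70% (1.53% of all). Of the 5 motifs, only the E-box CACGTG was more frequent in orphan islands, at 10.2% (8.91 to 11.6) against 7.61% (7.15 to 8.10) in TSS and 8.29% in all islands. A match is a run of letters and not evidence of binding.

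Families of developmental regulators, many of whose genes set cell identity in the embryo, were examined as a list. The prefixes used take in whole families, so not every member need be such a regulator. With host or nearest genes taken from prefixes of gene families such as Hox, Pax, Sox, Fox and Tbx, 134 orphan islands belonged to this list, 104 of them in unique windows. Noncoding transcripts at such loci, among them Sox2ot, Pax6os1 and Emx2os, entered by their prefixes. Of the 104, 57.7% were called for H3K9ac, 23.1% for 13HH3 and 10.6% for 7G8, against 53.2%, 18.8% and 10.9% of all unique orphan islands. The intervals of the list (47.6 to 67.3, 15.4 to 32.4 and 5.40 to 18.1) held these shares. The median log2 ratios were 1.19, 0.49 and 0.35, against 1.08, 0.41 and 0.17. The highest lower bounds for H3K9ac were near the forkhead genes Foxj2 (226, 40, 58 and 18 tags of H3K9ac, 13HH3, 7G8 and input) and Foxk1 (222, 53, 96 and 24). Near Foxd1, which acts in kidney and retina development, the island 11577 bp from the start held 102, 68, 46 and 14 tags and that at 36881 bp held 81, 59, 44 and 14. The island 6028 bp from Otx2, a head and forebrain regulator, held 151, 72, 57 and 26. At the lower end, the coding exon of Sox5 held 20, 35, 31 and 43 tags, so that input was highest (H3K9ac log2 ratio -1.37, -2.21 to -0.57).

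The cadherin superfamily, cell adhesion proteins, had 27 unique orphan islands, of which 13 (48.1%, 28.7 to 68.1) were called for H3K9ac, 4 (14.8%) for 13HH3 and 2 (7.41%) for 7G8. The intervals (4.19 to 33.7 for 13HH3 and 0.910 to 24.3 for 7G8) held the 53.2%, 18.8% and 10.9% of all unique orphan islands. The lowest member, an intergenic island nearest to the endothelial cadherin gene Cdh5, held 6 tags of H3K9ac, 22 of 13HH3, 18 of 7G8 and 15 of input (H3K9ac log2 ratio -1.59, -3.24 to -0.14). The atypical cadherin gene Fat1 had islands of different levels. An intergenic island 14728 bp from its start held 173 tags of H3K9ac, 69 of 13HH3, 66 of 7G8 and 12 of input (H3K9ac log2 ratio 3.59, 2.74 to 4.57), and another, at 11441 bp, held 128, 43, 32 and 13. The 3 islands in coding exons of the gene held 45, 14, 32 and 16 tags, 15, 12, 4 and 16, and 10, 14, 4 and 15. The windows of the last pair overlapped and shared tags, so they are not separate observations. Their H3K9ac intervals (-1.48 to 0.75 and -2.16 to 0.40) included equality with input.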

How the data were processed

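The authors deposited 1 file of mapped tags per library, made from single-end reads of 36 bases aligned to mm9 with ELAND (1 mismatch allowed, version not given in the sources used here), and the score deposited beside each tag is 1 throughout and carries no measurement. Repeats of a position and strand were absent from 3 libraries as deposited, and the 738711 in 13HH3 (3.30%) were counted once. Tag positions were moved by 100 bp towards the fragment centre and counted within 1 kb of each island centre, then scaled to tags per 10000000. A running sum along the mm9 sequence, adding 17 at a CpG and -1 at any other base, delimited candidate islands. Uniqueness was read from the number of places of every 36-base word of that sequence.

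Each group had 1 library, so no p-value was computed. Intervals are exact 95% intervals, conditional binomial for ratios of tags, Clopper-Pearson for shares and by order statistics for medians. They cover counting error or the sampling of islands only, and tags are not independent molecules. Windows of neighbouring islands can overlap and share tags, which the intervals of shares and medians do not allow for. With 1 island per group of overlapping windows, 7723 orphan islands remained. Of these, 25.4% were called for H3K9ac, 9.83% for 13HH3 and 8.57% for 7G8.

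Islands named are those in unique windows with, inside and outside genes, the most CpGs (4 each), or the highest lower bound of the ratio to input for H3K9ac (4), 13HH3 (3) and 7G8 (2), and the 3 with the highest bound for 13HH3 over H3K9ac. Counts by library give the tags of H3K9ac, 13HH3, 7G8 and input in that order. The members and gene lists were chosen with earlier results of these data known, and the use of unique windows in the text followed the first look at all islands. Later starts are RefSeq promoter sequences (GRCm38.p6), of which 30366 of 31396 (96.7%) were found at 1 place in mm9. Sequences are shown for some of the named islands only, and a few islands of the gene lists are not reported here.

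Island finding and counting were tested on simulated data. The tools were numba 0.67.0, scipy 1.17.1 and numpy 2.4.6 for counting and intervals, pandas 2.3.3 for tables and matplotlib 3.10.9 for plots, all under Python 3.11.15.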

Additional observations from a re-analysis of the deposited data

How the results depend on the processing

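Of 201 recomputed values, 127 stayed within 1.5 times of the reported count or within the interval of the reported rho, and 74 moved. Counts and not shares were compared, also where the number of islands differed, so a count that stayed can hide a changed share. For H3K9ac in unique windows, scaled by bins with few tags, 1496 of 2072 islands (72.2%) were called. That count stayed within 1.5 times of the reported 2015 of 8095 (24.9%). No rho changed sign. The order of intragenic and intergenic shares turned between all and unique islands for H3K9ac (30.4 and 22.4%, then 46.2 and 60.9%) and for 13HH3 (11.6 and 8.69%, then 15.6 and 22.3%), also with 10 or more input tags (41.8 and 48.5%, 13.5 and 16.6%), and for 7G8 with calls by the exact interval above 1 (7.27 and 5.63%). The reported counts at 2-fold or more are over all orphan islands, in the order H3K9ac, 13HH3, 7G8, and most counts that moved did so because fewer islands entered. In unique windows they were 1102, 389 and 225 in all, 504, 170 and 66 intragenic and 598, 219 and 159 intergenic, and rho with CpG number was 0.424, 0.260 and 0.199. With stricter islands (500 bp, GC 0.55, observed over expected 0.65) they were 616, 245 and 181, then 239, 85 and 45, then 377, 160 and 136, with rho 0.340, 0.288 and 0.0979. With 10 or more input tags they were 1132, 377 and 208 in all, 167 (13HH3) and 61 (7G8) intragenic, and 615, 210 and 147 intergenic, with rho 0.413, 0.281 and 0.247. With protein-coding starts only, more islands were intragenic orphans, and 1147 of them were called for H3K9ac, with rho 0.281 (H3K9ac) and 0.174 (13HH3). A window of 500 bp gave rho 0.222 (H3K9ac) and 0.0674 (7G8), calls by the exact interval above 1 gave 315 intergenic islands for 7G8, and scaling by bins with few tags gave rho 0.165 (13HH3).

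Further alternatives were added after seeing the data, 3 of them within unique windows. Scaling input within each chromosome gave 1090, 364 and 207, then 498, 150 and 56, then 592, 214 and 151, with rho 0.418, 0.254 and 0.195. Scaling by bins with few tags gave 749, 309 and 123 intergenic islands, 173 in all and 50 intragenic for 7G8, and rho 0.428, 0.261 and 0.198. For H3K9ac it gave 1496 of the 2072 unique islands, since the tags of that library were 0.685 of input in such bins. Without islands within 5 kb of a later RefSeq start, and without the 74 on a chromosome where none were placed, the counts were 821, 292 and 159, then 425, 146 and 51, then 396, 146 and 108, with rho 0.403, 0.227 and 0.188.

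No library was left out, as each antibody has 1. No paired analysis was possible because each group has 1 library. The planned restriction to islands outside masked repeats was not run, since the reference sequence used here marks no repeats. Depth limits single islands, as the middle 50% of unique orphan windows held 17 to 31 input tags.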

Other observations

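Orphan islands also lay at the ends of genes. Among unique orphan islands, 293 were within 1 kb of the 3′ end of a transcript, and 58.4% (52.5 to 64.1) of them were called for H3K9ac, 18.8% for 13HH3 and 8.87% for 7G8. The 1779 others had 52.3% (50 to 54.7), 18.8% and 11.2%, so that the intervals overlapped for H3K9ac.

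Other gene lists had few unique members. Among genes of histone modifiers, islands of the deacetylase genes Hdac4 and Hdac5 had H3K9ac log2 ratios to input of 2.93 and 2.34, and that of Setd4 had -0.94. The 4 unique islands of collagen genes, which code for extracellular matrix, had 0.49 (Col15a1), 0.32 (Col8a1), and -0.08 and -1.15 (Col6a2). The only unique island of a pluripotency gene lay in a coding exon of Sall4 and held 55 tags of H3K9ac, 27 of 13HH3, 19 of 7G8 and 20 of input.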
